A study of Mus musculus with 8 samples.

Results

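Among the 812 genes of the deposited comparison, 27 were genes of airway club cells, of ciliated cells, or of the name families that most motile cilium proteins belong to. They were found by symbol alone, from the secretoglobin, mucin and BPI fold families, the dynein arm, radial spoke, tektin, nexin-dynein and cilia- and flagella-associated families, the intraflagellar transport, BBSome, coiled-coil, repeat and tubulin families, plus *Foxj1* and *Cplane1*. The comparison was of alveolar type 2 (AT2) cells, which make surfactant, from mice of 2 genotypes on the C57BL/6 background. In the RhoA-deficient group (Sftpc-cre;RhoA fl/fl) the surfactant protein C promoter drives Cre, which deletes the floxed gene for the small GTPase RhoA where that promoter is active. The WT group carried the floxed alleles without Cre (RhoA fl/fl), and the labels call it wildtype. Both groups were primary cells exposed for 16 hours to 50 μg/mL of CRE, an extract of cockroach used as an allergen. The labels list 4 samples of each group. The paper describes the profiled cells as taken from mouse models of asthma, and its caption names mice treated with CRE. Age was not given. The cells were enriched by removing cells that carried CD16/32, CD45, Ter119 or Sca-1 and cells that stuck to IgG-coated dishes, after trachea and airways had been cut away, so the preparation was not chosen by a positive AT2 marker.

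Club cells are the secretory cells of the small airways. They release secretoglobins, above all the product of *Scgb1a1*, and can renew the airway lining. Ciliated cells carry motile cilia, whose core is a ring of microtubule doublets bent by dynein arms and held in register by radial spokes, nexin-dynein links and a central pair, and *Foxj1* is the transcription factor that switches on most of these parts. Neither cell type belongs to the alveolus, and both sit next to it in the terminal bronchiole.

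The deposited values were FPKM, a count of fragments divided by transcript length and by library size, as 1 average per genotype, so a level can be compared between genes per length, but the spread between samples and the depth are unknown. The authors' own test columns were not used, so no difference is set against replicate error here. Differences are given as the RhoA-deficient level in percent of WT and as log2(FPKM + 1) in RhoA-deficient minus WT. Every gene of the table carries the authors' mark of significance, so each member had to differ in order to be listed, and the number of members that differ supports nothing by itself. Genes outside the table were not analysed here. *Rhoa* itself is outside it, so the genotype labels were not checked against the level of the deleted gene. The paper reports RhoA deficiency in isolated AT2 cells by Western blot. In bulk RNA, fewer cells of a type and less RNA per cell cannot be told apart.

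The members did not move as 1 block. Lower in RhoA-deficient AT2 cells were 24 of the 27, against 44.8% of all genes in the table, and 3 were higher, against 55.2%. The median difference in log2(FPKM + 1) was -1.14 over the members and 0.65 over the table. Of the members, 18 were lower by at least 1 on this scale (28.4% of the table) and 2 were higher by at least 1 (23.6% of the table). All 20 genes of the motile cilium were lower, and so was *Scgb1a1*. *Cplane1*, *Muc1* and *Tubb2a* were higher. Among the 463 genes within the span of mean FPKM of the motile cilium genes (0.795 to 19.1), 59.2% were lower.

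**Figure D1:**
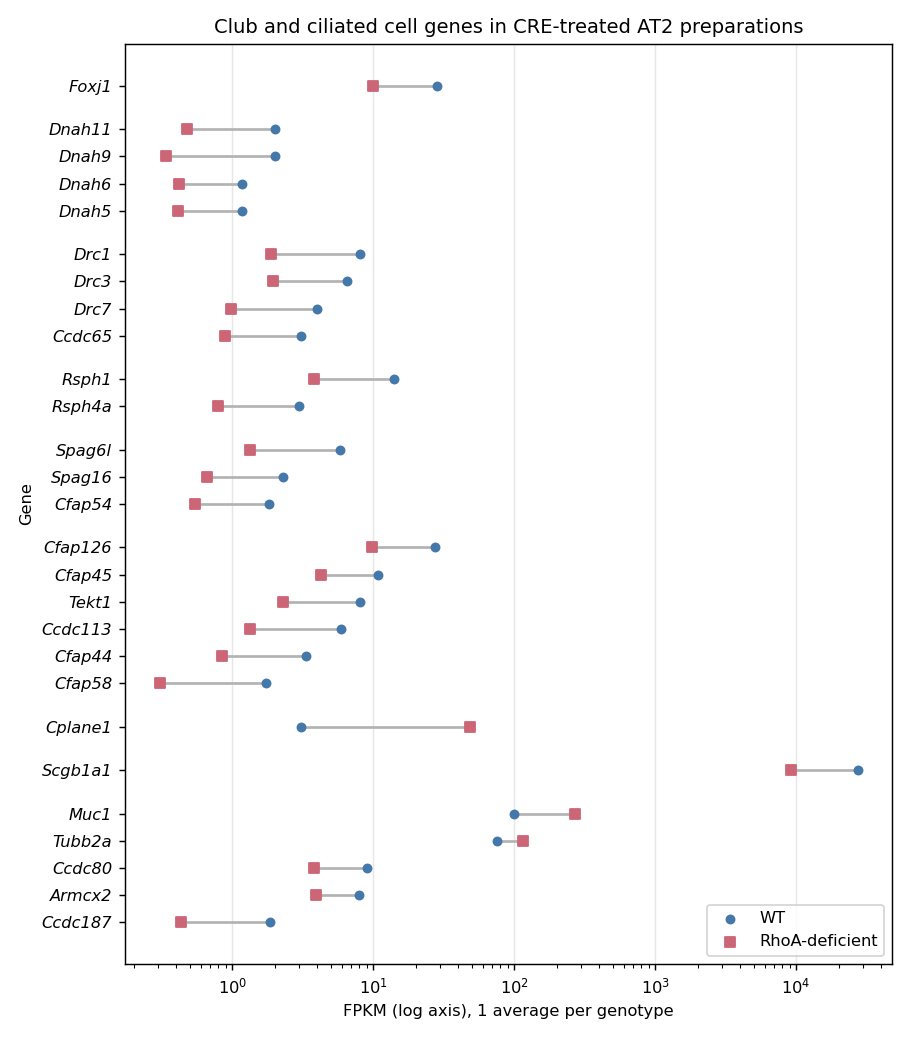
FPKM of the 27 genes in WT (circles) and RhoA-deficient AT2 cells (squares) on a log axis, 1 average per genotype with no error known, grouped from top to bottom as *Foxj1*, dynein heavy chains, nexin-dynein genes, radial spoke genes, central pair genes, other motile cilium genes, *Cplane1*, *Scgb1a1* and the rest. The squares lie to the left of the circles for 24 genes and to the right for *Cplane1*, *Muc1* and *Tubb2a*.

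*Scgb1a1*, which encodes the main secreted protein of club cells, was the most abundant gene of the table in both groups. It lies at chr19:9083636-9087958 (GRCm38, minus strand), and its longest coding transcript has 476 bases. Its level was 27285 FPKM in WT and 9204 FPKM in RhoA-deficient AT2 cells, 33.7% of WT. The gene made up 45.0% of the summed FPKM of the table in WT but 15.1% of that in RhoA-deficient AT2 cells. The next gene in both groups was *Lyz2*, a lysozyme gene of AT2 cells and macrophages, which *Scgb1a1* exceeded 8.13 times in the WT group and 1.40 times in the other group. Without *Scgb1a1* the table summed to 33372 FPKM in WT and 51943 FPKM in RhoA-deficient AT2 cells. FPKM is relative to all fragments of a library, and scaling the RhoA-deficient values to an equal sum of these 811 genes shifted the table's median from 0.65 to 0.03. It also moved the genes lower by at least 1 from 28.4% to 42.2% of the table and those higher by at least 1 from 23.6% to 5.79%. Among the members, 22 were then lower by at least 1 and 1 was higher by at least 1. At any size, 25 members were lower and 2 higher, and 47.9% of the table was lower. *Scgb1a1* was the only secretoglobin of 34 annotated ones in the table (2.94%), and 0 of 14 genes of the BPI fold family were there. Both counts are near the 3.59% of all protein-coding genes that the table lists.

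*Foxj1*, the transcription factor of motile ciliogenesis, lies at chr11:116330704-116335399 (GRCm38, minus strand). Its level was 28.3 FPKM in WT and 9.91 FPKM in RhoA-deficient AT2 cells, 35.0% of WT, a difference of -1.43 in log2(FPKM + 1). It was the highest of the motile cilium genes in WT. Of the other 39 regulators of multiciliated cells that were looked up, including *Mcidas*, *Gmnc* and the RFX genes, 1 was in the table. The table lists 3.59% of all protein-coding genes, so this count is near that share and is no result about the regulators. The gene listed was *Myb*, a transcription factor that acts early in multiciliated cells and also in blood cell progenitors. It was at 4.26 FPKM in WT and 0.972 FPKM in RhoA-deficient AT2 cells.

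Dynein heavy chains are the motors of the cilium and are encoded by some of the longest transcripts in the genome. *Dnah5*, *Dnah9* and *Dnah11* encode heavy chains of the outer arm and *Dnah6* one of the inner arm. The level of *Dnah5* was 1.17 FPKM in WT and 0.416 FPKM in RhoA-deficient AT2 cells, or 35.4% of WT. *Dnah6* was nearly the same, with 1.18 and 0.423 FPKM (36.0%). *Dnah9* was at 2.00 and 0.342 FPKM (17.1%), the lowest share of all 27 genes, and *Dnah11* at 2.02 and 0.479 FPKM (23.7%). All 4 were thus under 1 FPKM in RhoA-deficient AT2 cells, and their differences in log2(FPKM + 1), from -1.16 to -0.61, are held small by the pseudocount of 1. Their longest coding transcripts run from 12.7 to 15.6 kb, so a low FPKM stands for more fragments than in a short gene. The product of FPKM and length in kb, which follows the number of fragments, was 14.9 to 28.4 for these 4 genes in WT and 16.6 for *Rsph1*, a short gene of higher FPKM. Exons of *Dnah6*, *Dnah9* and *Dnah11* share 1.26% to 4.44% of their bases with a gene on the opposite strand.

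The nexin-dynein regulatory complex links neighbouring doublets and limits their sliding. All 3 annotated genes of its Drc family were in the table, with *Ccdc65*, which encodes another subunit. *Drc1* was at 8.03 FPKM in WT and 1.89 FPKM in RhoA-deficient AT2 cells, and its difference of -1.64 in log2(FPKM + 1) was the lowest among the members. *Drc3* was at 6.53 and 1.96 FPKM, *Drc7* at 3.97 and 0.975 FPKM, and *Ccdc65* at 3.06 and 0.889 FPKM. The subunits kept similar shares of their WT level, from 23.5% for *Drc1* to 30.0% for *Drc3*.

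Radial spokes and the central pair carry signals from the centre of the axoneme to the dynein arms. *Rsph1*, a spoke head gene, was at 14.0 FPKM in WT and 3.84 FPKM in RhoA-deficient AT2 cells, and *Rsph4a*, another, at 2.97 and 0.795 FPKM. Their levels differed, but their shares of WT were 27.4% and 26.8%. Of the central pair genes, *Spag6l* was at 5.86 and 1.34 FPKM (22.8% of WT), *Spag16* at 2.30 and 0.667 FPKM (29.0%), and *Cfap54* at 1.82 and 0.543 FPKM (29.8%). *Spag6l* has a close paralog, *Spag6*, so its value is uncertain if reads were divided between them.

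The other motile cilium genes were *Cfap126*, *Tekt1*, *Cfap45*, *Cfap44*, *Ccdc113* and *Cfap58*. *Cfap126*, also called Flattop and linked to the placement of basal bodies, was at 27.5 FPKM in WT and 9.89 FPKM in RhoA-deficient AT2 cells, which put it beside *Foxj1* in both groups. *Tekt1*, which encodes a tektin filament protein, was at 8.03 and 2.30 FPKM (28.6% of WT). *Cfap45*, whose product lines the inside of the doublets, was at 10.8 and 4.26 FPKM, and its 39.45% was the highest share kept by a motile cilium gene. *Cfap44*, needed to anchor an inner arm dynein, was at 3.32 and 0.852 FPKM (25.7%), *Ccdc113* at 5.93 and 1.35 FPKM (22.8%), and *Cfap58* at 1.74 and 0.307 FPKM (17.7%). The last was the lowest level of all members in RhoA-deficient AT2 cells.

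As a group, the 20 motile cilium genes kept between 17.1% and 39.45% of their WT level, with a median of 28.02%. Scaling to an equal sum without *Scgb1a1*, which is a choice and not a measured library total, would divide each of these shares by 1.56. The WT levels of the 20 genes ran from 1.17 to 28.3 FPKM. The summed level was 140.6 FPKM in WT and 43.4 FPKM in RhoA-deficient AT2 cells. The 11 genes under 5 FPKM in WT kept a median of 26.8% and the 9 genes at 5 FPKM or more a median of 28.6%. *Scgb1a1*, at 33.7%, lay within the range of the motile cilium genes. The families differed in how much of them the table held. Of the annotated protein-coding genes, 4 of 15 Dnah genes, 2 of 8 Rsph genes, 5 of 31 Cfap genes, 1 of 5 tektin genes and 2 of 12 Spag genes were listed, against 3.59% of all protein-coding genes. None of the 2 Dnai genes, 3 Dnal genes, 14 Ift genes, 8 Bbs genes and 42 Ttc genes was listed. The coiled-coil name family had 4 of 139 (2.88%). For families of these sizes, the families with none listed and the coiled-coil family are near the share of all protein-coding genes. The Dnah, Rsph, Cfap, tektin and Spag shares, from 16.1% to 26.7%, lie above it. These families were chosen with earlier results of these data known.

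**Figure D2:**
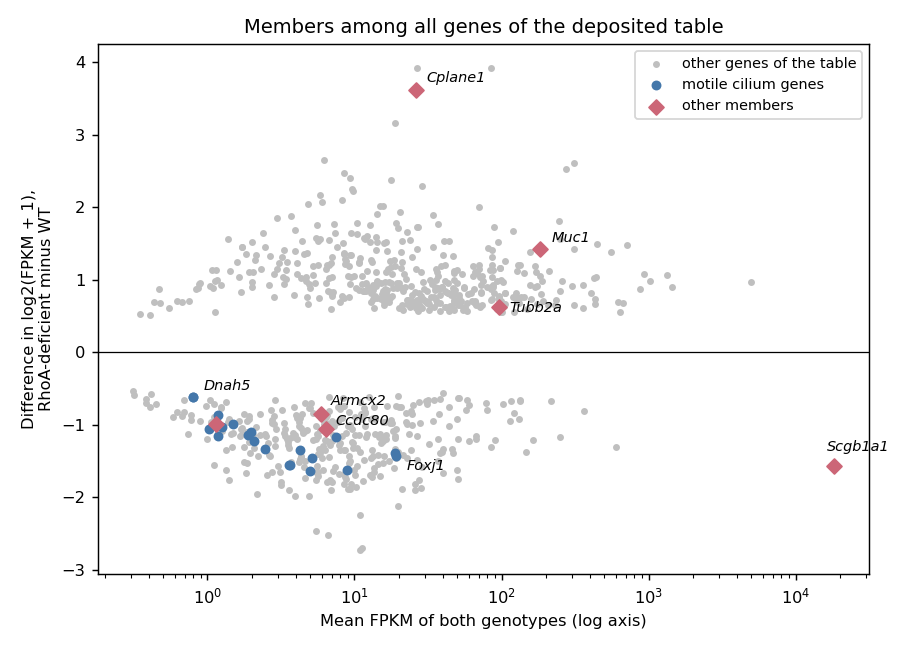
Difference in log2(FPKM + 1), RhoA-deficient minus WT, against the mean FPKM of both genotypes (log axis) for all 812 genes of the table, with the 20 motile cilium genes as blue circles and the other 7 members as red diamonds. The motile cilium genes lie between -1.64 and -0.61, *Scgb1a1* stands alone at the right, and *Cplane1* is near the top.

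Ciliated cell genes outside these name families were lower as well. Of 70 such annotated genes looked up, 13 were in the table, which lists 3.59% of all protein-coding genes. All 13 were lower (44.8% of the table was lower), with a median of 31.2% of WT. *Nme5*, a ciliary nucleoside diphosphate kinase family gene, was at 32.7 FPKM in WT and 6.73 FPKM in RhoA-deficient AT2 cells, *Pifo*, needed for cilium disassembly, at 15.2 and 3.39 FPKM, and *Tppp3*, of a family that promotes tubulin polymerization, at 59.4 and 28.8 FPKM. The shares ran from 11.8% for *Iqca*, whose level was under 1 FPKM in both groups, to 48.5% for *Tppp3*. Between them were *Kif9*, a kinesin gene of motile cilia, at 26.5% of WT, *Ak7*, an adenylate kinase gene, at 26.7%, *Lrrc6*, needed to assemble dynein arms, at 30.7%, and *Lrrc34*, *Mlf1*, *1110017D15Rik*, *Fhad1* and *Ubxn10* at 31.2% to 39.0%. *Cd24a*, at 210.4 and 80.7 FPKM, is a surface antigen of ciliated cells that many other epithelial and blood cells carry too.

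Of 32 genes of club cells other than *Scgb1a1*, 6 were in the table, which lists 3.59% of all protein-coding genes. Of these 6, 2 were lower and 4 higher, where 44.8% of the table was lower and 55.2% higher. *Gsto1*, a glutathione transferase, was at 851.4 FPKM in WT and 344.2 FPKM in RhoA-deficient AT2 cells, 40.4% of WT, and *Krt15*, a keratin of airway progenitors, at 2.93 and 0.594 FPKM. *Retnla*, a resistin-like secreted protein of the allergic lung, was higher 16.6 times, *Pigr*, the receptor that carries IgA across epithelia, 5.93 times, *Fmo2* 2.74 times and *Ces1d* 1.84 times. In log2(FPKM + 1), the same scaling without *Scgb1a1* took *Fmo2* from 1.19 to 0.64 and *Ces1d* from 0.86 to 0.23, with no change of direction among the 4. *Scgb3a2* and *Cyp2f2*, which also mark club cells, were not in the table. Of the 15 goblet cell genes outside the members, 1 was listed, *Slc26a4*, the anion exchanger pendrin, which was higher. For this list and those that follow, the share to compare is again the 3.59% of all protein-coding genes. The basal cell list gave 4 of 13 genes, *Krt17* lower and *Hspb1*, *Icam1* and *Krt6a* higher, though *Hspb1* turned to -0.04 in log2(FPKM + 1) when scaled to an equal sum without *Scgb1a1*, and the neuroendocrine list gave 1 of 15, *Ccn3* (listed under its older symbol *Nov*), at 3.99 FPKM in WT and 1.55 FPKM in RhoA-deficient AT2 cells, 38.7% of WT. *Atp6v0d2*, which is shared with macrophages and osteoclasts, was lower and the only gene of 15 of the tuft cell and ionocyte list.

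*Cplane1* went against the motile cilium genes. It encodes a basal body protein that helps to bring the intraflagellar transport machinery to cilia of all kinds, and it is needed for Hedgehog signalling. The gene lies at chr15:8169106-8271158 (GRCm38, plus strand), and none of its exons overlap another annotated gene. Its level was 3.07 FPKM in WT, within the range of the motile cilium genes, and 49.0 FPKM in RhoA-deficient AT2 cells, 16.0 times as high. The difference of 3.62 in log2(FPKM + 1) was rank 3 of the 448 genes that were higher. Scaled to an equal sum without *Scgb1a1*, *Cplane1* was still higher, by 3.00. With its longest coding transcript of 10.5 kb, the product of FPKM and length was 32.1 in WT, above that of each dynein gene, and 513.3 in the RhoA-deficient group. None of the 20 motile cilium genes and the 13 other ciliated cell genes in the table was higher, so *Cplane1* differed in direction from the ciliated cell genes it was grouped with.

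Of 52 further genes of the primary cilium and of Hedgehog signalling, 3 were in the table, where 3.59% of all protein-coding genes are listed. All 3 were lower, as was 44.8% of the table. *Smo*, the Hedgehog signal transducer, was at 10.9 FPKM in WT and 6.13 FPKM in RhoA-deficient AT2 cells (56.1% of WT), *Gas1*, a Hedgehog co-receptor, at 2.65 and 0.763 FPKM (28.8%), and *Gpr161*, a ciliary receptor that restrains the pathway, at 1.88 and 0.781 FPKM (41.5%). The partners of *Cplane1* in its complex, *Intu*, *Fuz* and *Wdpcp*, were not in the table.

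*Muc1* and *Tubb2a* were the other members that were higher, and neither is restricted to airway cells. *Muc1*, a transmembrane mucin that AT2 cells also carry on their surface, was at 99.3 FPKM in WT and 268.1 FPKM in RhoA-deficient AT2 cells, 269.9% of WT. It lies at chr3:89229057-89233381 (GRCm38, plus strand). On the log2(FPKM + 1) scale its difference of 1.42 lay within the range of the AT2 genes in the table, 10 of which had a larger and 8 a smaller difference. Scaled to an equal sum without *Scgb1a1*, the difference of *Muc1* was 0.79 and no longer at least 1. *Tubb2a*, a β-tubulin used in many cells, which lies at chr13:34074274-34078007 (GRCm38, minus strand), was at 75.4 and 116.5 FPKM, a difference of 0.62 that became -0.01 when the groups were scaled to an equal sum without *Scgb1a1*. *Tubb2b* is a near-identical copy, so reads of these genes could have been divided between them.

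The remaining 3 members were matched by the name pattern and were not counted among the motile cilium genes. *Ccdc80*, which encodes a secreted matrix protein of mesenchymal cells, was at 9.06 FPKM in WT and 3.83 FPKM in RhoA-deficient AT2 cells, 42.2% of WT. *Armcx2*, an X-linked armadillo repeat gene, was at 7.96 and 3.95 FPKM (49.7%), and *Ccdc187* at 1.85 and 0.430 FPKM (23.3%). *Ccdc80* and *Armcx2* kept more than any of the motile cilium genes, and *Ccdc187* lay within their range.

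Markers of other cell types were also in the table, in both directions. Of 22 AT2 genes, 18 were in the table, which lists 3.59% of all protein-coding genes, and all were higher (55.2% of the table), from 1.92 times for *Lpcat1* to 11.6 times for *Slc34a2*, with a summed level of 6489 FPKM in WT and 14292 FPKM in RhoA-deficient AT2 cells. Between these were the surfactant genes *Sftpa1*, *Sftpb* and *Sftpd*, the lysozyme genes *Lyz1* and *Lyz2*, and *Napsa*, *Abca3*, *Cd74*, *Cxcl15*, *Hc*, *Il33*, *Etv5*, *Scd1*, *Egfl6*, *Lamp3* and *Chil1*. With the groups scaled to an equal sum without *Scgb1a1*, all 18 were still higher, and those higher by at least 1 in log2(FPKM + 1) went from 16 to 5. *Sftpc* was not in the table. Of 34 genes of mesenchymal, endothelial and immune cells, 8 were in the table, 7 of them lower (44.8% of the table), and the summed level was 209.7 and 95.8 FPKM. *Cd4* of T cells kept 10.6% of WT and *Cd8a*, also of T cells, 36.6%. *Col1a2* of fibroblasts kept 45.8% and *Acta2* of smooth muscle 51.8%. *Dcn* of fibroblasts kept 28.8% of WT, *Ptprc* of leukocytes 34.5% and *Pecam1* of endothelium 55.9%, and *S100a9* of neutrophils was 6.14 times as high. The part of cell composition in the levels of the club and ciliated cell genes was not tested.

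**Figure D3:**
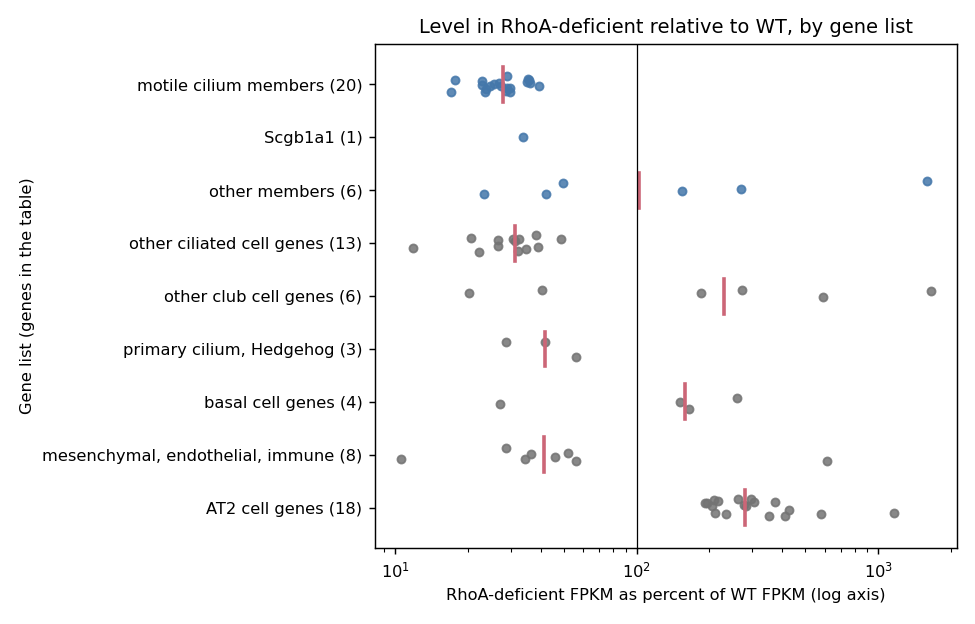
RhoA-deficient FPKM as a percent of WT FPKM (log axis) for the genes of each list that are in the table, with their number in brackets; each point is a gene, the red bar is the median of a list and the vertical line marks equal levels. The motile cilium genes (17.1% to 39.45%) and the other ciliated cell genes (11.8% to 48.5%) lie left of the line, the AT2 genes right of it, and the other club cell genes on both sides.

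The promoters of the motile cilium genes shared short motifs that the choice of members did not use. RFX factors, which act with *Foxj1* on cilium genes, bind an X-box made of a pair of inverted cores. The core was searched as GTTGCC or GTTGCT on both strands, from 250 bases before to 50 bases after the start site in the RefSeq windows of GRCm38.p6, and the matches in the members did not overlap. Windows were found for 21 of the 27 members and not for *Scgb1a1*, *Foxj1*, *Rsph1*, *Cfap54*, *Rsph4a* and *Ccdc80*. A core was present for 13 of the 16 motile cilium genes with a window, which is 81.3%, against 27.9% of the 27025 genes with a window. None of *Cplane1*, *Muc1*, *Tubb2a*, *Armcx2* and *Ccdc187* had one, which for so few genes is near the share of all genes. The letters GTTGCC alone were found in 7 of these 16 genes and in 14.1% of all genes, and GTTGCT in 9 and in 16.7%. The core of the forkhead factors, GTAAACA, was in the window of none of the 21 members and of 4.05% of all genes, so the members are near that share. A match is a description of the letters and no sign that a factor bound there in these cells.

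**Figure D4:**
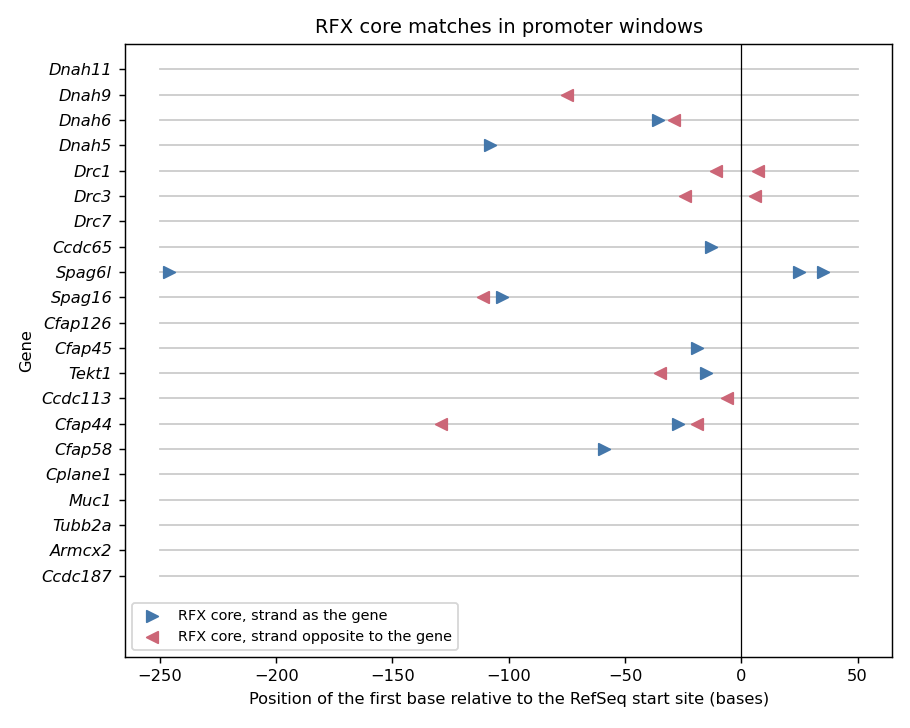
Position of each RFX core match relative to the RefSeq start site (0) in the promoter windows of 21 members, each grey line running from 250 bases before to 50 bases after the start; triangles point right for a match on the strand of the gene and left for the opposite strand. The 22 matches belong to 13 motile cilium genes, 18 of them lie before the start site, and the lines of *Cplane1*, *Muc1*, *Tubb2a*, *Armcx2* and *Ccdc187* are empty.

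The stretches just before the start site are shown for *Cfap44* and *Dnah6*, whose cores face each other as in an X-box, for *Spag16*, whose cores point away from each other, for *Dnah5* with a single core, and for *Cplane1*, one of the 3 members that were higher. Each is written 5′ to 3′ on the strand of the gene, begins 140 bases before the RefSeq start site, ends before the first annotated exon, and has the core matches in capitals. They lie on GRCm38.p6 at chr16:44394659-44394795 (plus strand) for *Cfap44*, chr6:73221652-73221771 (minus strand) for *Dnah6*, chr1:69826830-69826969 (plus strand) for *Spag16*, chr15:28203626-28203751 (plus strand) for *Dnah5* and chr15:8168966-8169105 (plus strand) for *Cplane1*.
Cfap44: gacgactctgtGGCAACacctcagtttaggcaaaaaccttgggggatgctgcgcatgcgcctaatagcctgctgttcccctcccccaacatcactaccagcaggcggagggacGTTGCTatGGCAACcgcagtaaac
Dnah6: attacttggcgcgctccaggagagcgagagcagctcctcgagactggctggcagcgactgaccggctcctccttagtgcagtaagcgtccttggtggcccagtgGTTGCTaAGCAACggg
Spag16: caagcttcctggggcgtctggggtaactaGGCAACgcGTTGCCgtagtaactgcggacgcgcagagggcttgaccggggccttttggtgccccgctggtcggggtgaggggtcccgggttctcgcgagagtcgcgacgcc
Dnah5: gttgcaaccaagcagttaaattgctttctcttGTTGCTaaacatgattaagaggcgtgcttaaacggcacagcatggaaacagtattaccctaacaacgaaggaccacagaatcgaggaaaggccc
Cplane1: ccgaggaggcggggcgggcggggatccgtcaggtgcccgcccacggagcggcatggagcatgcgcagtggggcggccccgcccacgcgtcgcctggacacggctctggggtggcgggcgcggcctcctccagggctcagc

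In *Cfap44*, the facing cores are 2 bases apart, the last of them starting 19 bases before the start site, and another core lies 129 bases before it. The facing cores of *Dnah6* are 1 base apart and start 36 and 29 bases before the start site. A facing pair with at most 3 bases between the cores was a form looked for after the sequences had been seen. It was present in 2 of the 21 members and in 0.466% of all genes with a window. Its count in the members therefore supports nothing by itself. *Cfap44* and *Dnah6* kept 25.7% and 36.0% of their WT level, and *Spag16* and *Dnah5* 29.0% and 35.4%. The motile cilium genes with a window and without a core were *Cfap126*, *Drc7* and *Dnah11*, which kept 35.9%, 24.6% and 23.7%, so the genes with and without the letters overlapped in their share of WT.

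The members were spread over 15 chromosomes, with 4 of them on chromosome 11 (*Foxj1*, *Tekt1*, *Drc3* and *Dnah9*). *Drc7* and *Ccdc113* lie on chromosome 8 with 455943 bases between them. The locus in the table equals the annotated gene for 22 members and extends beyond it for *Dnah6*, *Dnah9*, *Dnah11*, *Rsph1* and *Cfap45*, for which the reason was not tested.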

How the data were processed

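The authors aligned reads of mRNA libraries to GRCm38 with STAR (2.7.2b per the labels, which list mm9 as the build), used Partek with RefSeq transcripts for annotation, and ran Cufflinks for the comparison of genotypes. The FPKM values, as deposited by the authors, are 1 average per genotype, and which samples entered it is not given in the sources used here. The table also holds the authors' fold change, test statistic, p-value, q-value and mark of significance, none of which was used beyond the fact that all 812 genes carry the mark. The loci of 22 of the 27 members equal gene spans of GENCODE M21 on GRCm38.

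Members were matched by gene symbol. The difference in log2(FPKM + 1) and the percent of WT were computed for every gene, without a filter, and no test was run because there are no values per sample. The depth is unknown, so no interval is given. The product of FPKM and length used the longest coding transcript. All 27 members are named, and so are the genes of each other list that are in the table. The members and lists were chosen with earlier results of these data known. The computation was tested on simulated data. Alternatives were pseudocounts, a mean FPKM of at least 1 or 5, a difference of at least 1.5 and narrower sets of members. The work ran on Python 3.11.15, with Matplotlib 3.10.9, NumPy 2.4.6 and pandas 2.3.3.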

Additional observations from a re-analysis of the deposited data

How the results depend on the processing

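The choice of pseudocount cannot turn a direction. The median difference of the members, -1.14, was -1.67 with a pseudocount of 0.1, -1.78 with none, -1.16 with a mean FPKM of at least 1, and -1.17 both with a mean FPKM of at least 5 and without the Ccdc, Ttc, Armc and Tub families. A mean FPKM of at least 5 kept 11 members and 603 genes of the table, and 8 of these members were lower (37.3% of the genes kept) and 7 lower by at least 1 (24.5%). At a difference of at least 1.5, 5 members were lower (9.61% of the table) and 1 was higher (7.88%). Without the secreted families 1 member was higher by at least 1. With no pseudocount, all 24 lower members were lower by at least 1, and so was 37.3% of the table, against 28.4% with a pseudocount of 1.

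Scaling to an equal sum of the genes other than *Scgb1a1* was chosen after seeing the data. It gave a median of -1.39 and 1 member higher by at least 1 (*Cplane1*, with *Muc1* at 0.79), and reversed *Tubb2a* to -0.0096. All genes in that sum carry the authors' mark of significance, so equal sums are an assumption. Without the 5 members whose locus extends beyond the gene, the median was -1.12. No paired analysis was possible because only group averages were given, and replicates could not be left out for the same reason. The depth is unknown, so which members it limits most could not be set.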
